A study of Mus musculus with 15 samples.

Results

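The metabotropic glutamate receptor genes measured here were Grm2, Grm3, Grm4, Grm5, Grm7 and Grm8, 6 of the 24498 genes in a table of RNA-seq read counts from cultured primary mouse hippocampal neurons. They were chosen by gene symbol, and all 6 had enough reads to be tested. The cultures had differentiated for 7 days and were then kept for 24 h with or without 5 mM acetate, a product of alcohol breakdown, and with or without 20 µM of an inhibitor of ACSS2, the enzyme that makes acetyl-CoA from acetate. The groups were DMSO vehicle (solvent and medium only, 4 libraries), DMSO acetate (solvent and acetate, 4), inhibitor vehicle (inhibitor without acetate, 3) and inhibitor acetate (both agents, 4). All cultures shared the same medium and came plated from 1 supplier; no strain, age or genotype is given, and nothing states that replicates came from separate animals or cultures, so the spread that p-values rest on is that of these samples and may be technical.

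Metabotropic glutamate receptors are G protein-coupled receptors that sense synaptic glutamate and tune transmission over slower times than glutamate-gated channels. Group I receptors such as mGlu5 (Grm5) sit mostly beside postsynaptic sites and act through Gq and phospholipase C to release calcium, whereas group II receptors (Grm2, Grm3) and group III receptors (Grm4, Grm7, Grm8) act through Gi/o to lower cAMP and, at axon terminals, to restrain release. In the hippocampus mGlu5 is known for its part in long-term depression, and Grm3 is expressed by astrocytes as well as neurons.

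The group II pair gave opposite patterns among the vehicle libraries, described below. The sequence just upstream of each start is shown as background, and its part in these patterns was not tested. The 250 bases before an annotated transcript start are given 5′ to 3′ in the direction of transcription, from RefSeq promoter windows of GRCm38.p6, with the GC box GGGCGG (either strand) in capitals. Grm2 lies at chr9:106656110-106656359 and Grm3 at chr5:9725353-9725602, both on the minus strand.
Grm2: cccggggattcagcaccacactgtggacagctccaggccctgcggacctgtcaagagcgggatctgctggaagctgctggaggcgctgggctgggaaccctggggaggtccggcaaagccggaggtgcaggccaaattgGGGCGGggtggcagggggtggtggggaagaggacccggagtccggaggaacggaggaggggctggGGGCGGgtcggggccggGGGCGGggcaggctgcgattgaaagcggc
Grm3: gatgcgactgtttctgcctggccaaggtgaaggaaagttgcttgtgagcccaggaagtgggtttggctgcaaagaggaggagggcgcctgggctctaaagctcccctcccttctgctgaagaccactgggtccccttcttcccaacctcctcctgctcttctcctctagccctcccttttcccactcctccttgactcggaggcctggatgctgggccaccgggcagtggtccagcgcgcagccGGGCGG
The Grm2 window held 3 GC boxes and 16 CpG pairs, and the Grm3 window 1 GC box and 8 CpG pairs. Of 32851 windows of this length in the table, 32.7% held a GC box, and the median was 6 CpG pairs. Neither window held the letters TGACG, part of a cAMP response element, or TATAAA, on either strand; 17.8% and 12.4% of all windows held them. The RefSeq table matched 4 of the 6 genes; only the 2 windows shown are described.

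Levels are given as CPM, the reads of a gene relative to its library's total after TMM scaling, and folds as log2 values with standard errors (SE). The words rose and fell are kept for genes whose adjusted p from edgeR's quasi-likelihood test, Benjamini-Hochberg over 15075 tested genes, was under 0.05. Gene counts per library ranged from 19688231 to 39234799, so that 1 count was worth 0.0277 to 0.0541 CPM. Neuronal markers were present throughout, with 14 pan-neuronal genes summing to between 5612 and 13070 CPM. Markers of astrocytes, oligodendrocyte lineage, microglia, vessel cells and meninges were not even across libraries. Their mean log2 CPM over 60 tested of 67 genes, the non-neuronal score, differed with acetate. DMSO vehicle had 4.42 ± 0.68 (SD, n = 4) and DMSO acetate 2.37 ± 0.06 (n = 4), while inhibitor vehicle had 3.70 ± 1.36 (n = 3) and inhibitor acetate 2.26 ± 0.14 (n = 4). DMSO vehicle 1 (3.41, against 4.62 to 4.84 in the rest of its group) and inhibitor vehicle 2 (2.14, against 4.33 and 4.64) stood apart, so results are given with and without this pair. Inhibitor vehicle 2 also had the largest share of reads on lines that name no gene, 47.4% against 38.9% to 43.1% in the other libraries. The summed level of the 67 genes ranged from 6596 to 15180 CPM (DMSO vehicle), from 5161 to 6316 CPM (DMSO acetate), from 6291 to 16170 CPM (inhibitor vehicle) and from 4339 to 6744 CPM (inhibitor acetate). Abcc9, a pericyte marker, was at 0 in every DMSO acetate library, and 0 of the 67 markers were at 0 throughout any other group.

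Grm5, the group I receptor, had the strongest acetate response of the 6 genes without inhibitor. In DMSO vehicle libraries 1 to 4 it stood at 64.7, 50, 46 and 41.9 CPM, and in DMSO acetate at 107, 111, 120 and 136 CPM. Every acetate library exceeded every vehicle library, and the highest vehicle value belonged to DMSO vehicle 1, the library of that group with the lowest non-neuronal score. The means were 50.6 ± 9.93 and 118 ± 12.7 CPM (SD, n = 4 each), a 2.34-fold rise (log2 1.22, SE 0.19, adjusted p = 0.00016). With DMSO vehicle 1 and inhibitor vehicle 2 left out, the log2 fold was 1.37 (adjusted p = 3.36e-09). Over all 24 alternatives the fold stayed between 0.37 and 1.37, with adjusted p from 1.3e-09 to 0.036. In RNA from whole cultures, fewer cells of a type and less RNA per cell cannot be told apart, and the part of the changing marker levels in this and the following results was not tested.

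With the inhibitor present, Grm5 also rose with acetate, but the groups overlapped and the call rested on single libraries. Inhibitor vehicle libraries 1 to 3 stood at 66, 128 and 72.6 CPM, and inhibitor acetate libraries 1 to 4 at 136, 120, 130 and 164 CPM. The groups overlapped because inhibitor vehicle 2, at 128 CPM, lay above the acetate library at 120 CPM. The log2 fold was 0.63 (SE 0.20, adjusted p = 0.0258); its adjusted p over alternatives ran from 1.89e-06 to 0.488. The call was lost without inhibitor vehicle 1 (0.46, adjusted p = 0.129), without inhibitor vehicle 3 (0.51, 0.113) and without inhibitor acetate 4 (0.53, 0.0709), whereas without the pair of uneven libraries the fold was 0.99 (adjusted p = 1.89e-06). The difference between the responses with and without inhibitor was -0.60 (SE 0.27, 95% interval -1.17 to -0.02), with unadjusted p = 0.0443 and adjusted p = 0.228, and so did not pass.

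Grm5 was the 1 receptor gene that passed the test for the inhibitor alone. Its 3 inhibitor vehicle libraries (88.8 ± 33.8 CPM, SD) all lay above the 4 DMSO vehicle libraries, the nearest pair being 66 and 64.7 CPM. The rise was 0.81 (SE 0.20, adjusted p = 0.0332), with adjusted p from 0.00313 to 0.247 over alternatives. It was lost without inhibitor vehicle 2 (0.45, adjusted p = 0.113) and without DMSO vehicle 2, 3 or 4 in turn (0.80, 0.76 and 0.73, adjusted p = 0.077, 0.0624 and 0.0571), yet passed with both DMSO vehicle 1 and inhibitor vehicle 2 left out (0.59, adjusted p = 0.00994). Fitted on these 2 groups alone it was 0.79 (adjusted p = 0.247). In the presence of acetate the inhibitor gave 0.21 (SE 0.18, 95% interval -0.18 to 0.61, adjusted p = 0.551).

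**Figure D1:**
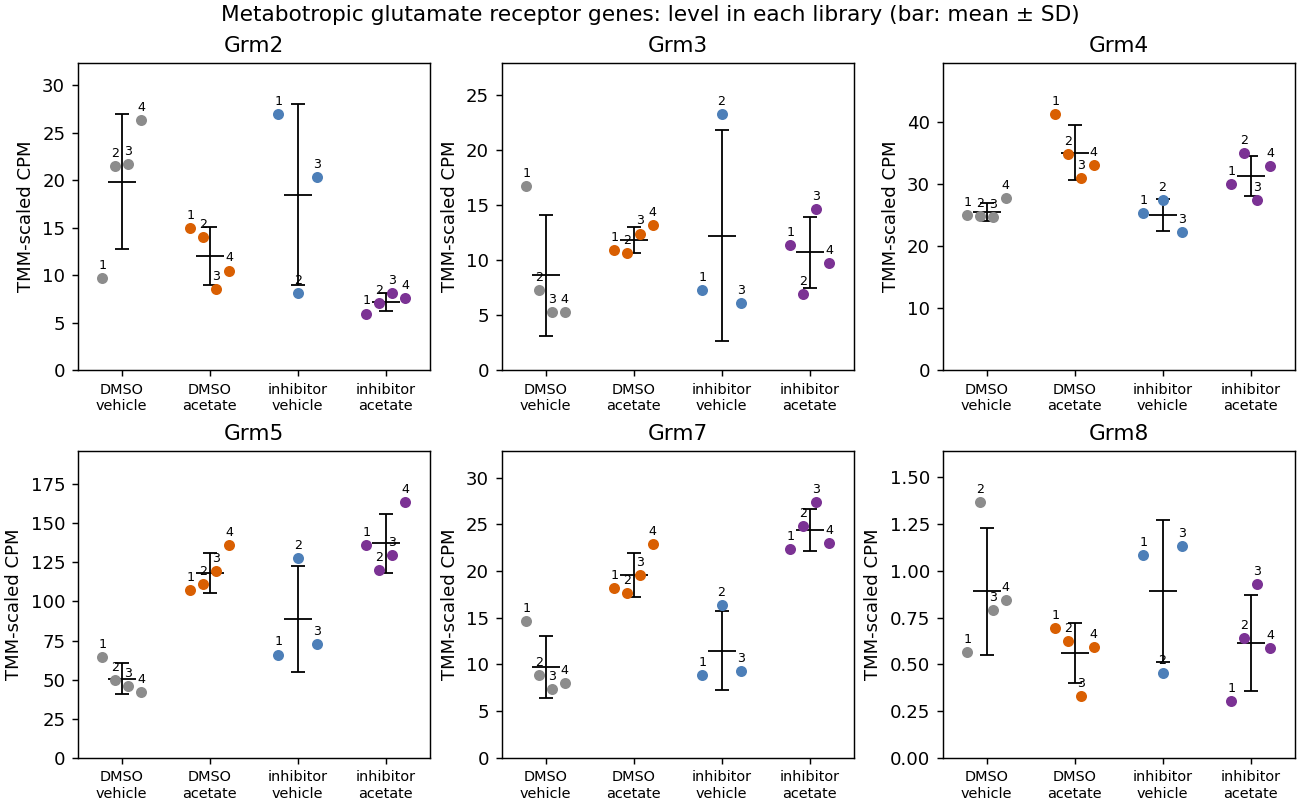
Level of each receptor gene in TMM-scaled CPM (vertical axes, each from 0), by group, with numbered points for the replicates and bars for mean and SD. Grm5 and Grm7 points of DMSO acetate all lie above DMSO vehicle, and inhibitor vehicle 2 lies apart from its group for Grm2, Grm3, Grm5 and Grm7.

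Grm2, a group II receptor of axon terminals, went the other way and fell with acetate in the presence of the inhibitor. Inhibitor vehicle libraries stood at 26.9, 8.11 and 20.4 CPM, and inhibitor acetate libraries at 5.96, 7.02, 8.11 and 7.6 CPM. Inhibitor vehicle libraries 1 and 3 were well above the rest, while inhibitor vehicle 2 was level with inhibitor acetate 3, so the groups overlapped. The log2 fold was -1.36 (SE 0.35, 95% interval -2.12 to -0.61, adjusted p = 0.00928; 2.86e-07 to 0.7 over alternatives). It was -1.72 (adjusted p = 2.86e-07) without the uneven pair and did not pass without inhibitor vehicle 1 (-0.99, adjusted p = 0.0711).

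Without inhibitor, Grm2 stood at 9.71, 21.5, 21.7 and 26.4 CPM in DMSO vehicle and at 15, 14, 8.57 and 10.5 CPM in DMSO acetate. Vehicle libraries 2 to 4 lay above all acetate libraries, and DMSO vehicle 1 lay below 3 of them. The fold of -0.71 (SE 0.32, 95% interval -1.41 to -0.02) had an adjusted p of 0.0774 and did not pass; without the uneven pair it was -0.93 (adjusted p = 5.28e-05). The difference of the responses was -0.65 (SE 0.48, 95% interval -1.67 to 0.37, adjusted p = 0.476), so a fall particular to the inhibitor was not shown. Over alternatives that adjusted p ran from 0.0324 to 0.823, the lowest with the non-neuronal score in the fit (-1.01).

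Inhibitor and DMSO were also compared in acetate-treated cultures, where the mean non-neuronal scores were 2.26 and 2.37. Means of single lists were 8.85 and 8.97 (pan-neuronal), 4.47 and 4.7 (interneurons), 0.16 and 0.41 (vessel cells) and 0.8 and 0.79 (microglia). The part of these levels in the Grm2 values was not tested. In acetate the 4 Grm2 values with inhibitor (5.96 to 8.11 CPM) lay below the 4 with DMSO (8.57 to 15 CPM), without overlap. The fold of -0.75 (SE 0.34, 95% interval -1.47 to -0.04) had an adjusted p of 0.202 in the fit of all 15 libraries. It passed in a fit of these 2 groups alone (-0.75, SE 0.16, adjusted p = 0.00653), where 8.58% of 13996 genes rose and 10.6% fell, and without the uneven vehicle libraries (-0.76, adjusted p = 0.0034); the range over alternatives was 0.0034 to 0.482. Without acetate the inhibitor gave -0.10 for Grm2 (SE 0.35, 95% interval -0.84 to 0.64, adjusted p = 0.886). Counting of Grm2 carries a further limit. An antisense gene, Gm28111, covers 470 of its exon bases (9.6%), and the strand setting of the counting is not given in the sources used here.

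Grm3, the other group II gene, rose or fell in 0 of the 5 comparisons and was the most uneven of the 6 in DMSO vehicle relative to its mean. DMSO vehicle stood at 16.7, 7.3, 5.24 and 5.24 CPM, and DMSO acetate at 10.9, 10.7, 12.4 and 13.2 CPM. DMSO vehicle 1 was the highest of these 8 libraries, and the other vehicle libraries were the lowest. With inhibitor, the vehicle libraries stood at 7.26, 23.2 and 6.13 CPM and the acetate libraries at 11.4, 6.93, 14.6 and 9.76 CPM, and again the library with the low non-neuronal score, inhibitor vehicle 2, was the highest. These are the libraries in which Grm2 was lowest among vehicle cultures. Glial markers moved in both directions in these libraries. Astrocyte markers were at 6.66 (mean log2 CPM) in DMSO vehicle 1 against 6.94 to 7.29 in the rest of its group, and at 6.74 in inhibitor vehicle 2 against 6.97 and 7.27. The summed level of oligodendrocyte lineage markers was higher in both libraries with the highest Grm3, at 882 CPM in DMSO vehicle 1 against 309 to 395 CPM, and at 1095 CPM in inhibitor vehicle 2 against 253 and 296 CPM. In inhibitor acetate libraries 1 to 4 this sum was 958, 577, 1101 and 439 CPM. Most of it was Olig1, a transcription factor gene of that lineage picked after its values were seen, at 695 CPM in DMSO vehicle 1 against 66.2 to 72.7 CPM and at 932 CPM in inhibitor vehicle 2 against 54.9 and 82.8 CPM. Sox10, another gene of the lineage picked likewise, went the other way, at 7.37 CPM in DMSO vehicle 1 against 18.4 to 28.8 CPM and at 1.14 CPM in inhibitor vehicle 2 against 8.26 and 12.7 CPM. The part of either list in the level of Grm3 was not tested. The acetate fold of Grm3 was 0.45 (SE 0.42, 95% interval -0.45 to 1.34, adjusted p = 0.39) without inhibitor and -0.19 (SE 0.45, 95% interval -1.15 to 0.77, adjusted p = 0.774) with it. Without the uneven pair both were positive and passed, at 0.98 (adjusted p = 0.000239; 0.000239 to 0.656 over alternatives) and 0.68 (adjusted p = 0.0154; 0.0033 to 0.973). With the non-neuronal score in the fit both were negative and passed, at -1.18 (adjusted p = 0.00662) and -1.17 (adjusted p = 0.0033), so no direction is given for this gene.

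Grm4, a group III receptor, had little spread in DMSO vehicle and rose modestly with acetate. DMSO vehicle stood at 25, 24.9, 24.6 and 27.7 CPM, and DMSO acetate at 41.2, 34.9, 31 and 33.1 CPM. All acetate libraries were higher, and DMSO vehicle 1 did not stand apart from its group. The log2 fold was 0.46 (SE 0.10, adjusted p = 0.00179; 0.000165 to 0.126 over alternatives), 0.45 without the uneven pair, and -0.44 (adjusted p = 0.00745) when libraries were scaled on pan-neuronal markers, which moved the median fold of all genes from -0.03 to -0.92. With inhibitor, vehicle libraries stood at 25.4, 27.4 and 22.3 CPM and acetate libraries at 29.9, 34.9, 27.5 and 32.9 CPM, with 27.44 and 27.49 CPM as the nearest values. That rise was 0.32 (SE 0.11, adjusted p = 0.0334; 0.00981 to 0.221 over alternatives), became -0.23 (adjusted p = 0.175) on the pan-neuronal scale (median of all genes -0.59), and was lost when inhibitor vehicle 1 or 3 or inhibitor acetate 2 or 4 was left out. The difference of the responses was -0.13 (SE 0.15, 95% interval -0.45 to 0.18, adjusted p = 0.655).

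Grm7, the group III receptor found at the active zone of terminals, rose with acetate both without and with the inhibitor. DMSO vehicle stood at 14.6, 8.9, 7.32 and 8 CPM, and DMSO acetate at 18.2, 17.6, 19.5 and 22.9 CPM. As for Grm5, the groups did not overlap and DMSO vehicle 1 was the highest vehicle library. The fold was 1.004 (SE 0.22, 2.01-fold, adjusted p = 0.00154; 1.8e-08 to 0.539 over alternatives). With inhibitor, libraries went from 8.82, 16.4 and 9.27 CPM to 22.3, 24.8, 27.4 and 23 CPM, again without overlap even for inhibitor vehicle 2. That fold was 1.09 (SE 0.24, 2.13-fold, adjusted p = 0.0038) and passed under all 24 alternatives (adjusted p 3.51e-08 to 0.0398). Without the uneven pair the folds were 1.27 and 1.43. The difference of the responses was 0.08 (SE 0.32, 95% interval -0.59 to 0.76, adjusted p = 0.915), an interval that allows differences of either sign. The inhibitor gave 0.24 without acetate (SE 0.23, adjusted p = 0.562) and 0.32 with it (SE 0.21, adjusted p = 0.407), the latter passing in the fit of its 2 groups (0.34, adjusted p = 0.0227) and without the uneven pair (0.32, adjusted p = 0.0252); the range over alternatives was 0.0227 to 0.634. An antisense gene, Gm20387, shares 130 exon bases (2.2%) with Grm7.

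Grm8, the last of group III, was close to the lower end of detection, with 7 to 42 reads per library. It stood at 0.564, 1.37, 0.788 and 0.842 CPM in DMSO vehicle and at 0.693, 0.622, 0.328 and 0.595 CPM in DMSO acetate. The inhibitor vehicle libraries had 1.09, 0.456 and 1.13 CPM, and those with inhibitor and acetate 0.305, 0.643, 0.927 and 0.585 CPM. The groups overlapped in every comparison, and inhibitor vehicle 2 was the lowest vehicle library, as for Grm2. The acetate folds were -0.66 (SE 0.38, 95% interval -1.47 to 0.16, adjusted p = 0.165) and -0.55 (SE 0.42, 95% interval -1.44 to 0.34, adjusted p = 0.329), and both intervals reach across 0. Without the uneven pair the first was -0.82 (adjusted p = 0.0355; 0.0041 to 0.463 over alternatives) and the second -0.85 (adjusted p = 0.0591).

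Over the 6 genes, 3 rose and 0 fell with acetate alone, where 23.7% of all tested genes rose and 27.5% fell. With inhibitor, 3 rose and 1 fell, against 14.5% and 20.6% of all genes. The median fold of the 6 was 0.45 and 0.07 in these comparisons, against -0.03 and -0.03 over all tested genes. Without the uneven vehicle libraries, 4 rose and 2 fell with acetate alone (28% and 31.6% of 15232 genes), and 4 rose and 1 fell with inhibitor (22.5% and 26.7%).

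For the difference of the responses, 0 of 6 passed in edgeR and 0 in DESeq2; 0.0133% of all genes were higher and 0.00663% lower, and 3113 genes had an unadjusted p under 0.05. For the inhibitor without acetate 1 rose and 0 fell (3.47% and 1.99% of all genes). With acetate 0 of 6 passed in edgeR and 0 in DESeq2 (2.36% rose and 3.42% fell among all genes, and 3315 genes had an unadjusted p under 0.05). The 4 comparisons between groups use each group more than once, so their folds are not independent of each other.

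**Figure D2:**
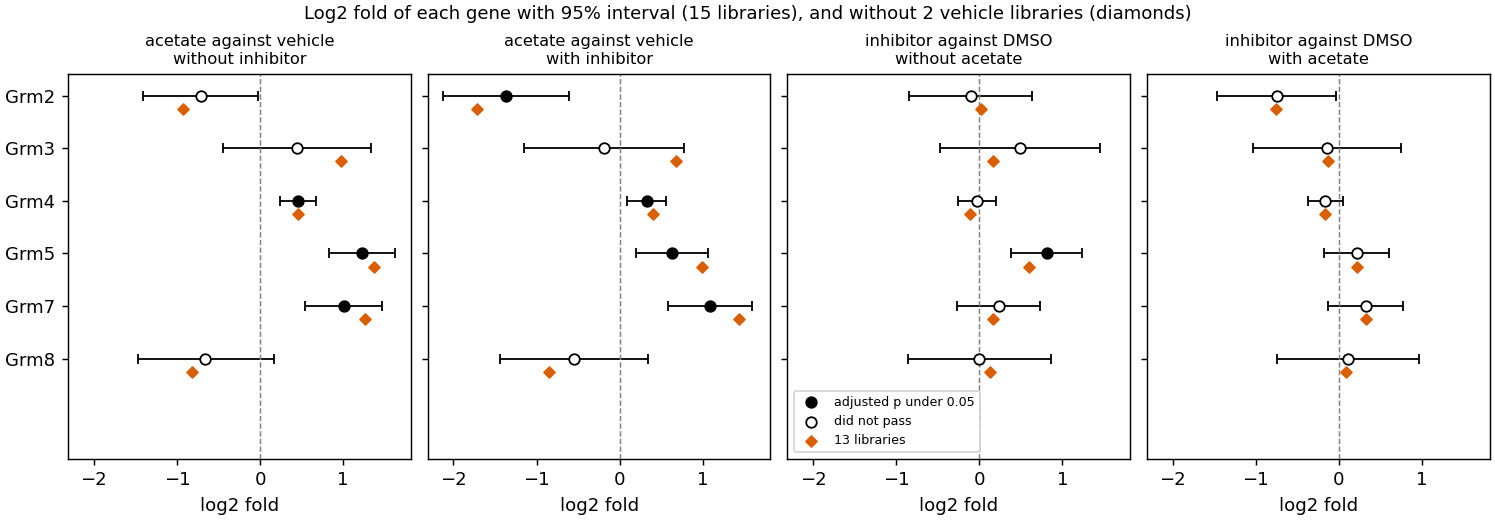
Log2 fold of each gene (horizontal axes) in the 4 comparisons between groups, with its 95% interval from all 15 libraries; filled points had an adjusted p under 0.05, and diamonds give the fold without DMSO vehicle 1 and inhibitor vehicle 2. The diamond of Grm3 lies to the right of 0 in both acetate panels (0.98 and 0.68), and those of Grm2 to the left (-0.93 and -1.72).

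The vehicle libraries that stood apart are set here beside the DMSO acetate libraries. The part of the marker levels in these values was not tested. Inhibitor vehicle 2, a library without acetate, had a Grm5 level (128 CPM) within the DMSO acetate range of 107 to 136 CPM. Its Grm2 level (8.11 CPM) lay below the DMSO acetate range of 8.57 to 15 CPM. For Grm4 (25 and 27.4 CPM) and Grm7 (14.6 and 16.4 CPM), DMSO vehicle 1 and inhibitor vehicle 2 lay below all 4 DMSO acetate libraries. Inhibitor vehicle 2 was the highest of its group for both genes. When the non-neuronal score entered the fit as a covariate, the acetate fold without inhibitor was 0.48 for Grm5 (adjusted p = 0.036), 0.37 for Grm4 (adjusted p = 0.126) and 0.19 for Grm7 (adjusted p = 0.539). With inhibitor, Grm7 had 0.55 (adjusted p = 0.0398), against 1.09 without the covariate, and Grm5 had 0.15 (adjusted p = 0.476). Grm2 turned positive without inhibitor, at 0.85 (adjusted p = 0.0406), and was at -0.16 (adjusted p = 0.7) with it. The score itself differed with acetate, so acetate and the score cannot be told apart fully in such a fit.

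**Figure D3:**
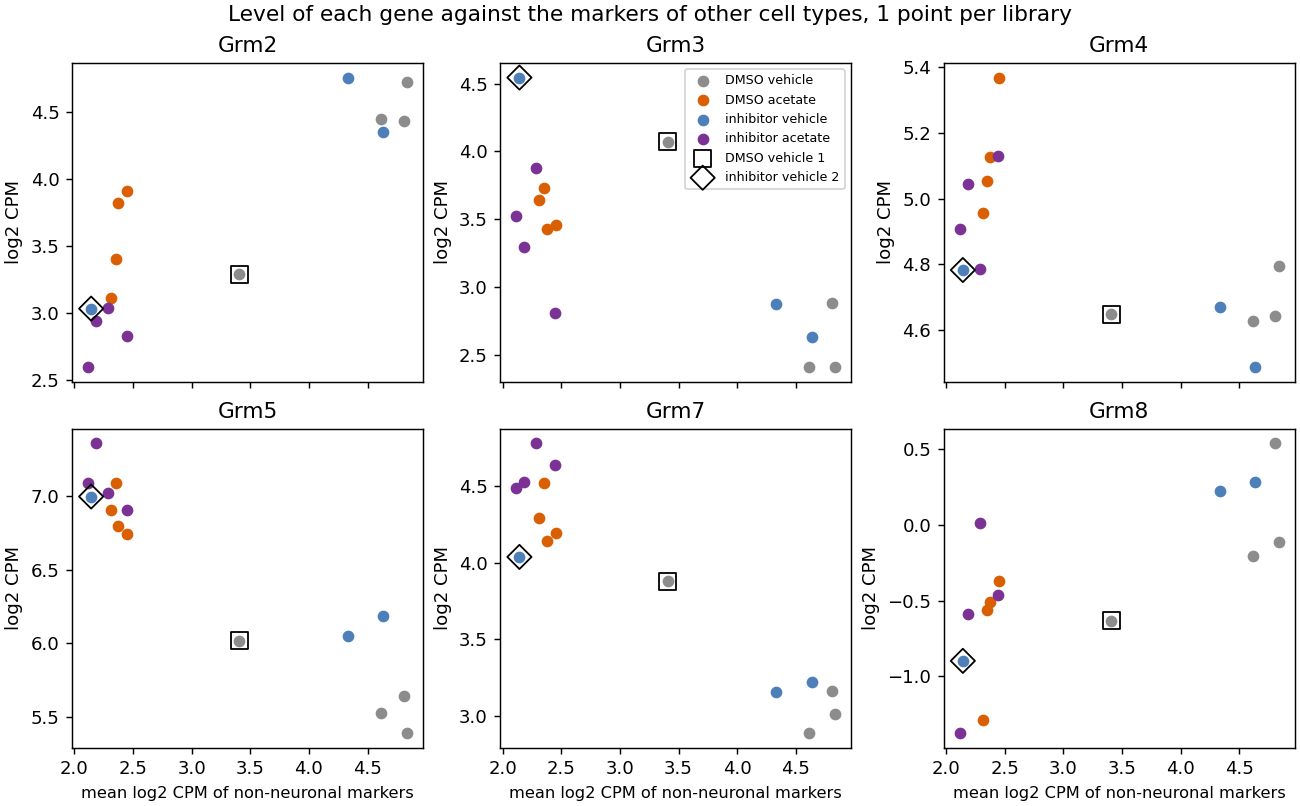
Level of each gene in log2 CPM (vertical axes) against the mean log2 CPM of the non-neuronal markers (horizontal axes), with 1 point per library; the outlined points are DMSO vehicle 1 (square) and inhibitor vehicle 2 (diamond). Inhibitor vehicle 2, at a score of 2.14, lies among the acetate libraries for Grm2 and Grm5, and DMSO vehicle 1, at 3.41, lies between the groups for Grm5 and Grm7.

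Scaling on the pan-neuronal markers moved the median fold of all genes by -0.89 without inhibitor and by -0.56 with it. On that scale Grm5 was at 0.37 (adjusted p = 0.0249) and 0.12 (adjusted p = 0.488), Grm7 at 0.18 and 0.58 (adjusted p = 0.0128 for the second), and Grm2 at -1.68 and -2.00. This scaling shifts all genes nearly together, so a gene's side of the median gene was largely fixed in advance. Each of these folds, and those of Grm4, lay on the same side as with TMM scaling. Ratios of counts within a library do not depend on the scaling. There were 3.17 ± 2.35 (SD, n = 4) Grm5 reads per Grm2 read in DMSO vehicle, and 10.5 ± 3.46 (n = 4) after acetate, with the nearest libraries at 6.66 and 7.14. With inhibitor the ratio was 7.24 ± 7.35 (n = 3) and 19.4 ± 3.31 (n = 4), with the nearest libraries at 15.7 and 16. The ratio of Grm5 to Grm7 reads moved less, with means of 5.39 ± 0.78, 6.06 ± 0.20, 7.71 ± 0.19 and 5.69 ± 1.13 in DMSO vehicle, DMSO acetate, inhibitor vehicle and inhibitor acetate. All inhibitor vehicle libraries (7.49 to 7.84) lay above every library of the other groups, the highest of which was at 7.12. Grm5 to Grm2 pairs the strongest riser with the gene that fell, and other ratios separated less. Without inhibitor, Grm7 to Grm2 reached 1.51 in vehicle and began at 1.22 in acetate. Grm3 to Grm2 reached 1.72 and began at 0.73, and Grm5 to Grm4 met at 2.59. With inhibitor, Grm5 to Grm4 (4.65 and 3.43) and Grm3 to Grm2 (2.87 and 0.987) overlapped. Grm7 to Grm2 (2.02 and 3.02) did not.

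Per kilobase of exon (GENCODE M21 gene models, GRCm38), the order of the levels was compared across genes. In DMSO vehicle Grm5 (4.94 ± 0.97 CPM per kb, SD), Grm4 (4.27 ± 0.24) and Grm2 (4.05 ± 1.45) overlapped in range, followed by Grm3 (2.83 ± 1.80), Grm7 (1.65 ± 0.57) and Grm8 (0.09 ± 0.03). Grm3 (1.72 to 5.49) overlapped with Grm5, Grm4, Grm2 and Grm7 in range, and Grm2 also overlapped with Grm7. In DMSO acetate Grm5 (11.6 ± 1.24) stood clear of Grm4 (5.86 ± 0.74), which stood clear of Grm3 (3.87 ± 0.39), and then came Grm7 (3.32 ± 0.40), whose range overlapped that of Grm3, Grm2 (2.46 ± 0.61) and Grm8 (0.06 ± 0.02). The highest Grm2 value there (3.06) lay above the lowest of Grm7 (2.99). In inhibitor vehicle the means per kb were 8.66 ± 3.30 for Grm5, 4.19 ± 0.43 for Grm4 and 4.0 ± 3.14 for Grm3. Those of the others were 3.77 ± 1.95 for Grm2, 1.95 ± 0.72 for Grm7 and 0.09 ± 0.04 for Grm8. The ranges of Grm4, Grm3 and Grm2 overlapped. The Grm3 range (2.01 to 7.62) also reached those of Grm5 (from 6.44) and Grm7 (up to 2.78). The Grm2 range (from 1.66) reached that of Grm7 as well. In inhibitor acetate Grm5 was at 13.4 ± 1.84, Grm4 at 5.24 ± 0.55, Grm7 at 4.14 ± 0.39, Grm3 at 3.5 ± 1.06, Grm2 at 1.47 ± 0.19 and Grm8 at 0.06 ± 0.03 per kb. Grm4 and Grm7 differed by little there, with ranges of 4.6 to 5.85 and 3.79 to 4.66 per kb. The Grm3 range (2.27 to 4.8) overlapped both. In 5 of 7 vehicle libraries Grm2 ranked first or second per kb of exon, and in all 8 acetate libraries, DMSO vehicle 1 and inhibitor vehicle 2 it was the fifth of 6. The order depends on the length used. Per kb of coding sequence the DMSO acetate means were 6.78 ± 0.82 for Grm7, 4.58 ± 1.14 for Grm2 and 4.48 ± 0.46 for Grm3 (SD).

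Only Grm7 and Grm8 share a chromosome. In GRCm38 coordinates Grm5 spans chromosome 7, 87584168 to 88134907, Grm2 spans chromosome 9, 106643095 to 106656082, and Grm3 spans chromosome 5, 9485541 to 9725170. Grm4 spans chromosome 17, 27422387 to 27521403, Grm7 spans chromosome 6, 110645581 to 111567230, and Grm8 spans chromosome 6, 27275119 to 28135178. Grm2 is the shortest at 13 kb, and Grm7 the longest at 921.6 kb. The host transcript of Grm8 shares 96 exon bases (1.0%) with Mir592 on the same strand.

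Profiles over the 15 libraries were compared by the root mean square (RMS) difference of centred log2 CPM, among 12461 genes whose average log2 CPM reached 1. Within the family all members were compared, including Grm8, whose average lay below that floor. Grm5 and Grm7 were the closest pair (0.25) and Grm2 and Grm7 the farthest (1.32). Grm2 was closest to the low Grm8 (0.48) and far from its group II partner Grm3 (1.21). Over all candidates Grm5 was closest to Zswim6 (0.14), Soga3 (0.14) and Camta1 (0.15). Grm7 was closest to Erc2, an active zone protein (0.15), Nlgn1, a synaptic adhesion protein (0.16), and the kinase gene Cdkl2 (0.16). Grm4 was closest to Wnk2, Ehd1 and Adrbk1 (0.09, 0.09 and 0.10). Grm2 was closest to Ccdc88b (0.21), Lamp5 (0.25) and Lsp1 (0.26), and Grm3 to the cadherin gene Cdh20 (0.23), the thyroid hormone transporter gene Slco1c1 (0.24) and Luzp2 (0.27). Grm8 was too low for this search. These are descriptions over libraries that share groups and marker differences.

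Genes that act with the receptors were followed as lists by role. The marker shifts above were present in the same libraries, and their part in the folds of these lists was not tested. Among Homer and scaffold partners, which tie group I receptors to the postsynaptic density, 7 of 11 rose and 1 fell with acetate alone (median 0.36, against -0.03 for all genes), where 23.7% of all genes rose and 27.5% fell. Homer2 rose from 37.6 ± 6.07 to 71 ± 3.56 CPM (SD, n = 4; log2 fold 0.92, SE 0.15, adjusted p = 0.00025). Ncdn, a neuronal protein that binds mGlu5, rose by 0.58 (SE 0.12, adjusted p = 0.000887). With inhibitor 3 of 11 rose and 0 fell (median 0.25; 14.5% and 20.6% of all genes). Without the uneven libraries 9 of 11 rose with acetate alone (28% of all genes), and 6 of 11 with inhibitor (22.5%).

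Of 17 genes of Gq signalling, 9 rose and 2 fell with acetate alone (median 0.49; 23.7% and 27.5% of all genes), and 5 rose and 1 fell with inhibitor (median 0.36; 14.5% and 20.6%). Prkcb, a protein kinase C, went from 172 ± 29.2 to 370 ± 32.7 CPM (SD, n = 4; log2 fold 1.11, SE 0.18, adjusted p = 0.000293) without inhibitor and had a fold of 0.44 with it (adjusted p = 0.0992). Gna11, a Gq-class alpha subunit, rose by 0.51 (SE 0.09) and 0.36 (SE 0.09). Without the uneven libraries 12 of 17 rose and 2 fell in either arm, where 28% and 22.5% of all genes rose and 31.6% and 26.7% fell without and with inhibitor. Effectors of group I long-term depression gave 4 of 10 up and 1 down in either arm (medians 0.08 and 0.25), where 23.7% and 14.5% of all genes rose and 27.5% and 20.6% fell without and with inhibitor. Mapk3, the kinase ERK1, rose by 0.82 (SE 0.09) and 0.54 (SE 0.10), and Map1b, a microtubule protein, rose by 0.67 (SE 0.18) without inhibitor and had 0.17 with it (adjusted p = 0.512).

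Of 16 genes of Gi/o signalling, which serves groups II and III, 5 rose and 3 fell with acetate alone (median 0.09; 23.7% and 27.5% of all genes). With inhibitor 6 rose and 2 fell (median 0.12; 14.5% and 20.6% of all genes). Adcy1, a calcium-stimulated adenylyl cyclase, went from 100 ± 6.9 to 161 ± 6.27 CPM (SD, n = 4; log2 fold 0.68, SE 0.07, adjusted p = 1.45e-05) and rose by 0.76 (SE 0.08) with inhibitor. Prkaca, a catalytic subunit of protein kinase A, rose by 0.72 (SE 0.09) and 0.55 (SE 0.10). Among 9 presynaptic and trans-synaptic partners of group III receptors, 8 rose and 0 fell with acetate alone (median 0.36; 23.7% and 27.5% of all genes), and 5 rose and 0 fell with inhibitor (median 0.37; 14.5% and 20.6%). Calm3, a calmodulin gene, rose from 1900 ± 520 to 3650 ± 360 CPM without inhibitor (SD, n = 4; log2 fold 0.94, SE 0.15, adjusted p = 2e-04) and by 0.77 (SE 0.16) with it.

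Receptor desensitization and RGS genes, which end receptor signals, included genes that rose and genes that fell. With acetate alone 3 of 13 rose and 6 fell (median -0.07), against 23.7% and 27.5% of all genes, and with inhibitor 5 rose and 5 fell (median -0.01), against 14.5% and 20.6%. Adrbk1, the receptor kinase GRK2, rose by 0.55 (SE 0.09) and 0.34 (SE 0.09). Rgs2, which limits Gq signals, differed in all 4 comparisons between groups, at 35.6 ± 1.13 CPM (SD, n = 4) in DMSO vehicle, 18.2 ± 1.15 in DMSO acetate (SD, n = 4), 17.9 ± 6.5 with inhibitor alone and 11.1 ± 1.19 with both agents (SD, n = 3 and 4). Its folds were -0.97 and -0.69 for acetate without and with inhibitor (adjusted p = 0.00033 and 0.00979), and -0.99 and -0.71 for the inhibitor without and with acetate (adjusted p = 0.0118 and 0.0265). In this list 0 rose with the inhibitor, and 2 and 3 of 13 fell without and with acetate (1.99% and 3.42% of all genes).

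Glutamate supply and clearance genes gave 3 of 12 up and 4 down with acetate alone (median 0.02), and 2 up and 2 down with inhibitor (median -0.04), shares near those of all genes (23.7% and 27.5%, then 14.5% and 20.6%). Slc17a7, the vesicular transporter of glutamatergic terminals, went from 579 ± 217 to 1260 ± 174 CPM (SD, n = 4; log2 fold 1.12, SE 0.21, adjusted p = 0.000605) and rose by 0.99 (SE 0.23) with inhibitor. Slc7a11, the cystine and glutamate exchanger that is expressed by glia, fell from 18.6 ± 9.52 to 2.75 ± 0.25 CPM (log2 fold -2.75, SE 0.53, adjusted p = 0.000783) and from 18 ± 12.7 to 3.14 ± 0.76 CPM with inhibitor (-2.53, SE 0.55). For the difference of responses 0 genes of all 7 lists passed.

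Scaling on the pan-neuronal markers turned the medians of all 7 lists negative or kept them so without inhibitor, from -0.97 to -0.36, where the median of all genes was -0.92. With inhibitor they ran from -0.59 to -0.19, and the median of all genes was -0.59. On that scale Homer2 was at 0.06 (adjusted p = 0.653) and Gna11 at -0.36 (adjusted p = 0.0011) without inhibitor. Both stayed above the median gene, which the common shift of all genes largely fixes.

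**Figure D4:**
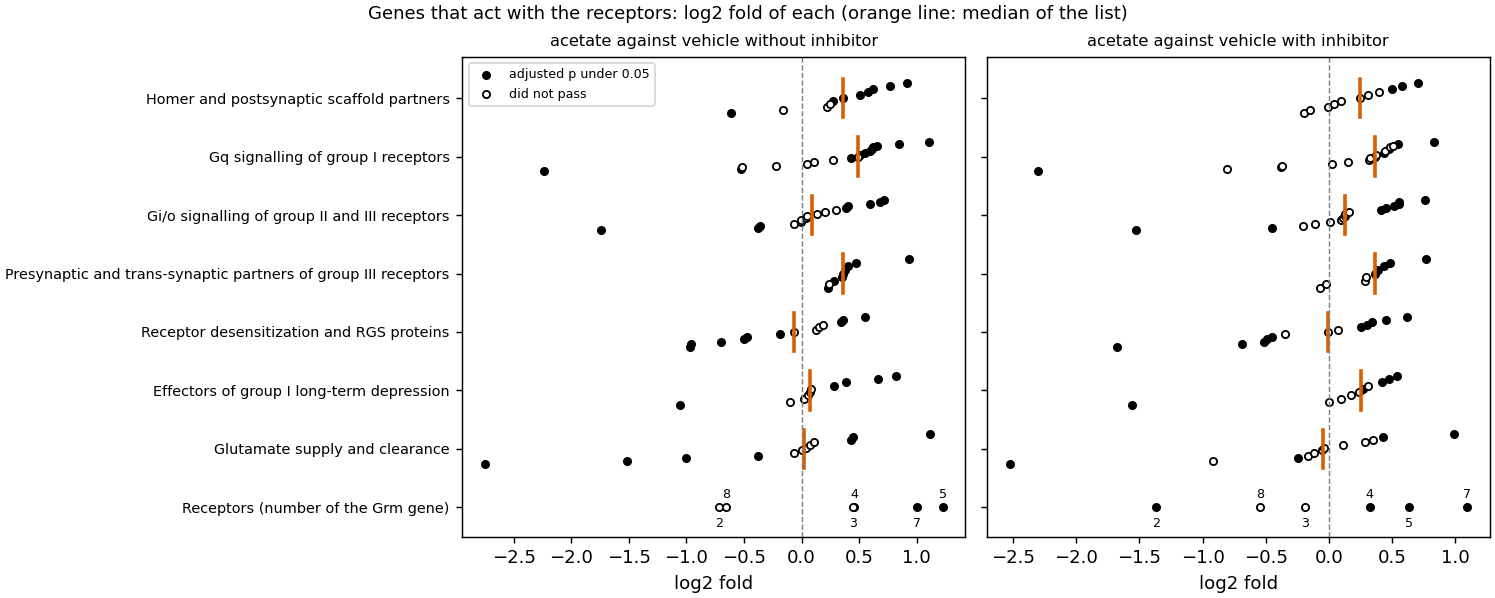
Log2 fold of each gene of the 7 partner lists and of the receptors (bottom row, labelled by the number of the Grm gene) for acetate without and with inhibitor; filled points had an adjusted p under 0.05, and the orange line is the median of the list. Grm5 (1.22) lies beyond every Homer and Gq gene to the right in the left panel, and the lowest points are Slc7a11 (-2.75 and -2.53).

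Cell type markers moved in the same libraries, where 23.7% of all genes rose and 27.5% fell with acetate alone. With acetate alone 12 of 14 pan-neuronal markers rose and 0 fell, 5 of 10 excitatory markers rose and 1 fell, and 4 of 13 interneuron markers rose and 2 fell. Falls were recorded for 7 of 13 astrocyte, 10 of 12 oligodendrocyte lineage, 13 of 13 microglia, 7 of 10 vessel cell and 9 of 12 meninges markers, with a rise for 1 vessel cell marker. The summed oligodendrocyte lineage level, mostly Olig1, went the other way from these falls, at 707 to 991 CPM in DMSO acetate against 309 to 395 CPM in DMSO vehicle 2 to 4 and 882 CPM in DMSO vehicle 1. With inhibitor 10 of 14 pan-neuronal markers rose, and 5, 6, 13, 6 and 9 genes of the last 5 lists fell (14.5% and 20.6% of all genes rose and fell). These counts set the receptor results beside the makeup of the cultures, whose part in them was not tested.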

How the data were processed

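Strand-specific libraries (NEBNext Ultra II Directional) were prepared from RNeasy-purified RNA, per the labels' protocols. The authors deposited raw read counts per gene symbol; the build mm10 and the tools STAR 2.5.2a, HTSeq 0.6.1p1 and DESeq2 come from the submitters' processing notes. The sources used here give neither the annotation nor the counting mode and strand. Lines that name no gene (38.9% to 47.4% of a library) were left out.

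Counts of all 15 libraries were fitted with edgeR 4.0.16 (limma 3.58.1, R 4.3.3; default expression filter, TMM, 1 mean per group, quasi-likelihood test, Benjamini-Hochberg adjustment); DESeq2 1.42.0 was an alternative. SEs were taken from the fold and its F statistic (fold over root F). Log2 CPM used a prior count of 2. Within groups, 21 library pairs differed by 4.65 to 144 chi-square units per gene, so none was a copy. The steps were tested on simulated data. Members, 7 partner lists and 8 marker lists were chosen with earlier results of these data known. Named were the members, the 2 genes per partner list with the smallest p for acetate without inhibitor, and the 3 nearest profiles per member; Abcc9, Olig1 and Sox10 were chosen after their values were seen. A gene that this rule names is not reported here. Other settings were scaling, filter, test, left-out libraries, groups fitted and a marker covariate.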

Additional observations from a re-analysis of the deposited data

Results flagged for a closer look

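In groups of 4 libraries, the highest and lowest values of each receptor gene were compared with the rest of their group by Dixon's ratio of gap to range. Of 18 such groups 1 exceeded the 95% critical value, and chance alone gives about 1 in 20. Grm4 in DMSO vehicle 4 stood at 27.67 CPM, apart from the other 3 libraries of its group at 24.6 to 25 CPM (ratio 0.892). The gap is small against the acetate libraries, which began at 31 CPM.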

How the results depend on the processing

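Each result was recomputed under 24 alternatives (23 for the difference of responses), set with earlier results known; of 714 recomputed gene folds, 630 kept their direction and side of the threshold, 25 lost their call, 15 gained one and 44 turned sign. Of 6 genes, 3 passed for acetate without inhibitor, and 3 to 5 with any library left out (5 without DMSO vehicle 1) and 6 with both uneven vehicle libraries left out. For acetate with inhibitor 4 passed. With a library left out 1 to 4 passed, 1 without inhibitor vehicle 1 and 2 without inhibitor vehicle 3 or inhibitor acetate 4. On the pan-neuronal scale 2 passed, where 1.08% of all genes rose and 65% fell. In a fit of the groups compared 2 passed, and 2 with the marker covariate. No share of all genes is given here for fits with 1 library left out or with the covariate. For the difference of responses 0 passed, and 1 with the covariate. For the inhibitor without acetate 1 passed, and 0 on the pan-neuronal scale, 0 with the replicate number as a block, 0 in the groups compared, and 0 to 1 with a library left out. For the inhibitor with acetate 0 passed, and 2 in the groups compared, 2 without the uneven pair and 1 with the covariate. Where no cause is named, the cause was not tested.

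Replicate numbers did not pair the libraries: same-numbered deviations correlated at -0.652 to 0.38 over 21 pairs, and 1 of 15 libraries was closest to its own number. With the replicate block, Grm5 was no longer past the threshold for acetate with inhibitor (0.62, adjusted p = 0.0546) or for the inhibitor alone (0.81, adjusted p = 0.0606), and no other call changed.

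Signs turned as follows. On the pan-neuronal scale, which by its construction shifts all genes together (the median by -0.89, -0.56, 0.32, -0.15 and 0.17 in the 5 comparisons), acetate without inhibitor gave -0.33 for Grm3 and -0.44 for Grm4, acetate with inhibitor -0.23 for Grm4, the difference 0.21 for Grm4, the inhibitor without acetate -0.14 for Grm8, and the inhibitor with acetate 0.037 for Grm3 and 0.008 for Grm4. With the covariate, acetate without inhibitor gave 0.85 for Grm2, -1.18 for Grm3 and 0.63 for Grm8, acetate with inhibitor 0.46 for Grm8, the difference 0.018 for Grm3 and -0.17 for Grm8, and the inhibitor without acetate 0.34 for Grm2, -0.26 for Grm3 and -0.08 for Grm7. Without the uneven pair, acetate with inhibitor gave 0.68 for Grm3, the difference -0.037 for Grm8 and the inhibitor without acetate 0.025 for Grm2. For Grm8, the inhibitor without acetate gave -0.023 under upper-quartile scaling and -0.01 in the groups compared. With a library left out, acetate with inhibitor ranged from -0.50 to 0.68 for Grm3. The difference ranged from -1.15 to 0.23 for Grm3, -0.16 to 0.43 for Grm7 and -0.20 to 0.34 for Grm8. The inhibitor without acetate ranged from -0.47 to 0.25 for Grm2, -0.37 to 1.02 for Grm3, -0.101 to 0.046 for Grm4, -0.11 to 0.50 for Grm7 and -0.21 to 0.30 for Grm8. The inhibitor with acetate ranged from -0.319 to 0.019 for Grm3 and -0.14 to 0.34 for Grm8. Of these reversed values only those of Grm2 and Grm3 with the covariate, Grm4 on the pan-neuronal scale and Grm3 without the pair, all for acetate, had an adjusted p under 0.05; that of Grm4 came with the shift of all genes, and Grm4 stayed above the median gene. Grm8 had 7 to 42 reads per library, whose part in its error was not tested.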
